A study of Oryza sativa Japonica Group with 6 samples.

Results

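The genes described here are 9 JAZ repressors and the transcription factor MYC2 of rice jasmonate signalling, 10 of the 37863 genes in the deposited table, chosen by their gene identifiers. They were followed in 6 polyA RNA libraries from leaves of rice seedlings (Oryza sativa, Japonica group) at 14 days after planting. Of these, 3 libraries were from OsWRKY65-2, an overexpression line of the WRKY transcription factor OsWRKY65, and 3 from wild type (WT). Both groups were grown on MS medium under the same light cycle, and no other treatment is named. The promoter of the transgene is not given in the sources used here, and the overexpressors are represented by a single line. The 3 OsWRKY65-2 columns of the table carry the line's name, whereas the prefix of the other 3 appears in no label. They were taken as WT because no other columns remain for the WT samples, and every direction below rests on that reading.

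Jasmonate is a lipid-derived hormone that plants make on wounding and under attack by chewing insects and some pathogens. JAZ proteins, which carry a TIFY (ZIM) domain, bind MYC-type basic helix-loop-helix factors and hold them inactive with the help of co-repressors such as NINJA. When the active hormone, jasmonoyl-isoleucine, joins a JAZ protein to the F-box receptor COI, the JAZ protein is degraded and MYC2 is released. Many JAZ genes are themselves targets of MYC2, so their transcripts are widely used as early markers of jasmonate signalling. The table annotates Os10g0575000 as a JAZ-interacting positive regulator of jasmonate signalling, which is MYC2 here, and all 9 JAZ members as TIFY, ZIM-motif or jasmonate ZIM-domain proteins. All members are named by their identifiers, since the table gives them no shorter symbols. The identifiers place Os03g0180800, Os03g0180900 and Os03g0181100 close together on chromosome 3, with Os03g0402800 on the same chromosome. Os10g0391400 and Os10g0392400 are near each other on chromosome 10, where MYC2 also lies. The other members are on chromosomes 4, 7 and 9. Reads of closely related neighbours can be shared, so the split among them is uncertain.

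Total counts were between 20585288 and 28361580 per library in OsWRKY65-2 and between 22618996 and 29720852 in WT. OsWRKY65-2 replicate 3 stood apart. It had no counts for 2444 genes whose median count in the remaining libraries was above 50, against 28 to 198 such genes in each of the other libraries. Results are therefore given with and without it. The gene taken as OsWRKY65, Os12g0116800, was at 69.5, 42.3 and 1039.6 CPM (counts scaled to a common library size with TMM factors) in OsWRKY65-2 replicates 1 to 3, and at 4.16, 0 and 0 CPM in WT replicates 1 to 3. Nothing in the labels says that replicates came from separate plants, so a p-value reflects only how these libraries spread, and part of that may be technical. An observed count of 0 leaves room for an expected count of up to about 3, which was 0.0917 to 0.160 CPM per library. This limit covers counting error only. In leaf tissue sampled in bulk, fewer cells of a type and less RNA per cell cannot be told apart. The defining leaf markers were abundant, with 4 genes of Rubisco, antenna and plastocyanin summing to between 13582 and 15649 CPM in OsWRKY65-2 and between 5978 and 10676 CPM in WT. The root gene Os02g0662000 stayed at or below 0.999 CPM in all 6 libraries, and 3 shoot meristem genes, 1 of them at 0 throughout, summed to 0 to 10.6 CPM in OsWRKY65-2 and 0 to 6.72 CPM in WT. The part of these markers in the results was not tested.

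The JAZ genes covered about 2 orders of magnitude of transcript level. Levels are compared between genes as TPM (transcript abundance scaled for length). Os07g0615200, a TIFY-domain protein, was by mean the most abundant member in both genotypes, at 175 ± 35.0 TPM in OsWRKY65-2 and 147 ± 24.4 TPM in WT (SD, n = 3 each). Os03g0402800, annotated as a ZIM-motif protein, came next, at 139 ± 82.8 TPM in OsWRKY65-2 and 113 ± 50.4 TPM in WT. In each genotype these means differed by less than the SD of Os03g0402800, and Os07g0615200 exceeded Os03g0402800 within 5 of the 6 libraries. Os03g0402800 in turn exceeded MYC2 in all 6. MYC2 was at 40.5 ± 21.7 TPM in OsWRKY65-2 and 39.8 ± 5.40 TPM in WT. A middle group held Os10g0392400, at 74.0 ± 90.0 TPM in OsWRKY65-2 and 36.9 ± 28.2 TPM in WT, and Os03g0181100, at 38.8 ± 30.5 TPM in OsWRKY65-2 and 32.1 ± 20.5 TPM in WT. MYC2 exceeded Os10g0392400 in 3 of the 6 libraries and Os10g0392400 exceeded Os03g0181100 in 4, so the order within this group is not firm.

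The remaining members were scarce in most libraries. Os09g0439200 was at 21.2 ± 10.6 TPM in OsWRKY65-2 and 7.31 ± 3.29 TPM in WT. Os03g0180900 ranked above it by mean in both genotypes, at 101 ± 169 TPM in OsWRKY65-2 and 14.7 ± 20.8 TPM in WT. However, Os03g0180900 exceeded Os09g0439200 within only 2 of the 6 libraries. In OsWRKY65-2 replicate 3 it was the most abundant member, at 297 TPM, against 233 TPM for Os03g0402800 and 208 TPM for Os07g0615200. Os03g0180800 was at 6.62 ± 8.94 TPM in OsWRKY65-2 and 7.16 ± 8.53 TPM in WT. Os10g0391400 and Os04g0395800 were lowest, at 2.28 ± 2.87 and 4.71 ± 7.73 TPM in OsWRKY65-2 and at 3.10 ± 1.04 and 1.61 ± 1.92 TPM in WT, in the order named. Neither stood above the other beyond the spread.

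**Figure D1:**
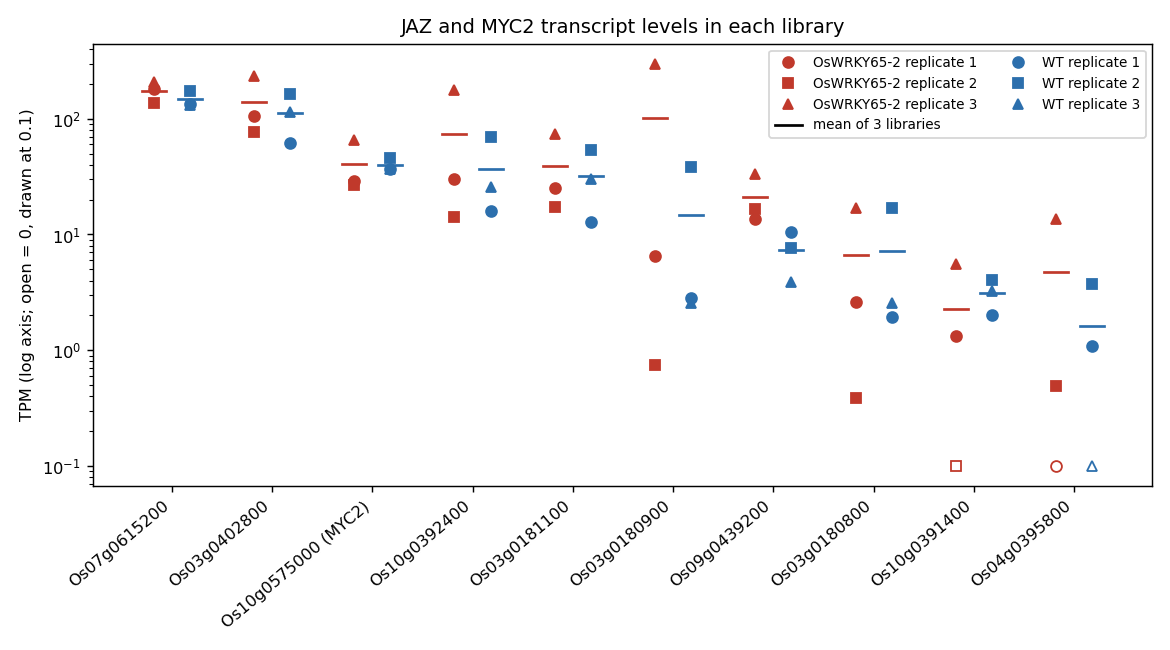
Deposited TPM of each JAZ gene and MYC2 (log axis) in every library, with OsWRKY65-2 in red left of WT in blue, a symbol per replicate, bars for the mean of 3 libraries and open symbols for 0. Genes are ordered by their WT mean, and the spread within a genotype is widest for Os03g0180900, at 0.750 to 297 TPM in OsWRKY65-2.

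The members differed widely between libraries of the same genotype. For 8 of the 10 members, MYC2 included, the 2 highest libraries were OsWRKY65-2 replicate 3 and WT replicate 2, a pattern held by 6.83% of the 23769 genes tested. OsWRKY65-2 replicate 3 was the highest library for all 10. It exceeded the mean of OsWRKY65-2 replicates 1 and 2 more than 2-fold for 9 members, against 15.6% of all tested genes. WT replicate 2 exceeded the mean of WT replicates 1 and 3 more than 2-fold for 5 members, against 7.86% of tested genes. The SD of log2(CPM + 0.5) within a genotype had a median over the members of 1.30 in OsWRKY65-2 and 0.88 in WT, whereas the medians over all tested genes were 0.64 in OsWRKY65-2 and 0.30 in WT. These counts describe a pattern noticed in the same libraries and were given no test.

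The senescence marker Os09g0532000, annotated as a senescence-inducible chloroplast protein, varied with the same libraries. It was at 8.23, 4.57 and 63.9 CPM in OsWRKY65-2 replicates 1 to 3 and at 8.45, 18.9 and 6.01 CPM in WT replicates 1 to 3. Its highest libraries were thus OsWRKY65-2 replicate 3 and WT replicate 2 as well, and its part in the JAZ levels was not tested. The morning clock gene Os08g0157600 (LHY) was at 405, 119 and 414 CPM in OsWRKY65-2 and 119, 117 and 249.6 CPM in WT. Its highest library was OsWRKY65-2 replicate 3, and WT replicate 2, its lowest, was close to WT replicate 1 and OsWRKY65-2 replicate 2. The other clock gene checked, Os01g0182600 (GIGANTEA), was at 1573, 1160 and 1230 CPM in OsWRKY65-2 and 1390, 1100 and 1286 CPM in WT. OsWRKY65 itself was highest in OsWRKY65-2 replicate 3, at 1039.6 CPM, and had no counts in WT replicates 2 and 3. The part of these genes in the JAZ levels was not tested.

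**Figure D2:**
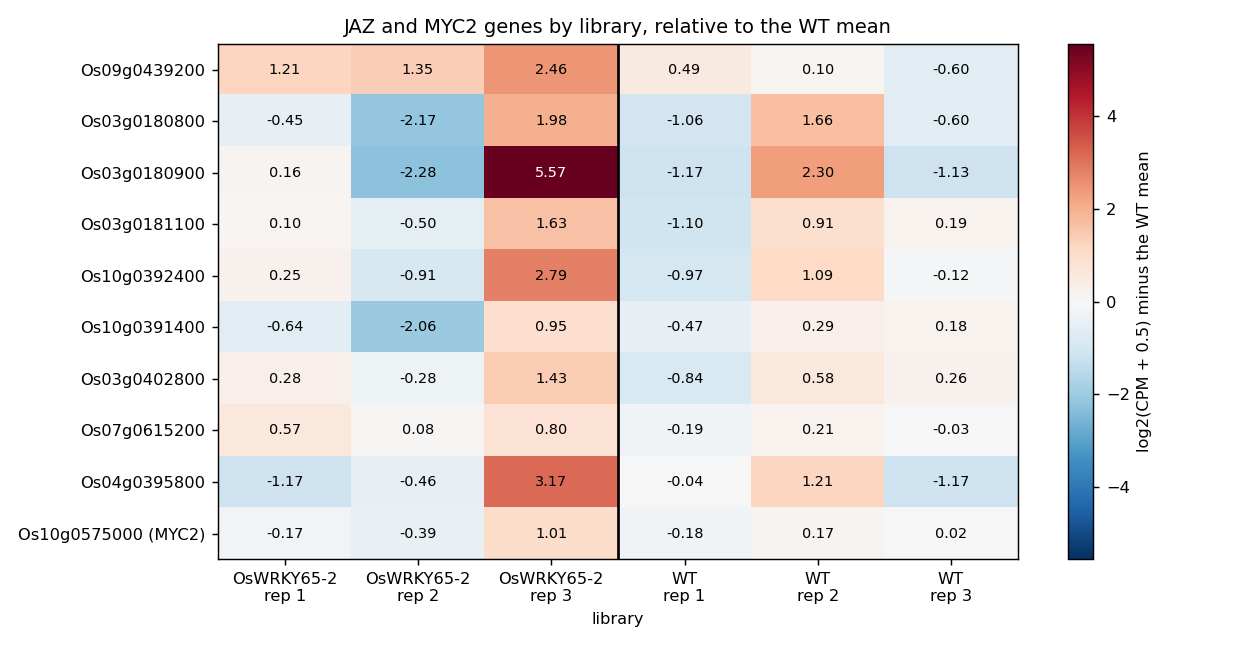
Heat map of log2(CPM + 0.5) minus the WT mean for each gene (rows) in each library (columns), OsWRKY65-2 left of WT, red above and blue below the WT mean. OsWRKY65-2 replicate 3 is the highest column in every row, up to 5.57 for Os03g0180900, and WT replicate 2 is the highest WT column for all genes but Os09g0439200.

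Over all 6 libraries, edgeR's quasi-likelihood test called none of the 10 members higher or lower in OsWRKY65-2 at an adjusted p under 0.05. It called 0 of 23769 genes in all (0.0%). At an unadjusted p under 0.05 there was 1 member, Os09g0439200, against 6.51% of all genes. DESeq2 called 1 member on the same genes, again Os09g0439200, where it called 3.04% of all genes, and limma-voom called 0. DESeq2 gave no adjusted p (NA) for Os03g0180900, so it could call 9 of the 10. The fold change was positive for 9 of 10 members, with a median log2 fold change of 0.52, whereas 49.5% of all tested genes were positive, with a median of -0.01. Those signs rested on OsWRKY65-2 replicate 3. Without it the fold change was positive for 2 of 10 members and the median was -0.44, while over all genes 51.6% were positive and the median was 0.02. No member was called by edgeR without that library, where it called 0.077% of genes, and 1 member, again Os09g0439200, had an unadjusted p under 0.05, against 10.6% of genes. Every member had a positive fold change when WT replicate 2 was left out instead, with an edgeR adjusted p of 0.999 for each.

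Os09g0439200, annotated as a repressor of jasmonic acid signalling linked to jasmonate-induced resistance to bacterial blight, was the one member whose genotypes did not overlap. It was at 12.3, 13.7 and 30.2 CPM in OsWRKY65-2 replicates 1 to 3, and at 7.32, 5.47 and 3.17 CPM in WT replicates 1 to 3. Every library of the line lay above every WT library, as was the case for 7.16% of all tested genes. WT replicate 2, high for most other members, was the middle WT library here. Means were 18.7 ± 9.93 CPM in OsWRKY65-2 and 5.32 ± 2.08 CPM in WT (SD, n = 3 each). The log2 fold change was 1.80 ± 0.51 (SE) with an edgeR adjusted p of 0.763. In an exact two-sided permutation test of log2(CPM + 0.5), p was 0.10, which is the lowest value possible with 3 libraries on each side. Without OsWRKY65-2 replicate 3 the log2 fold change was 1.28 ± 0.39 (edgeR adjusted p = 0.320). The DESeq2 call (log2 fold change 1.85, adjusted p = 0.0239) was lost when genes with low counts were kept in the test (adjusted p = 0.116), where DESeq2 called 0.969% of genes. It was also lost in DESeq2 without OsWRKY65-2 replicate 3 (log2 fold change 1.28, adjusted p = 0.151).

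Os07g0615200, the most abundant member by mean, was also the steadiest JAZ gene. It was at 180.2, 128 and 211 CPM in OsWRKY65-2 and at 107, 141 and 119 CPM in WT. The groups overlapped, since WT replicate 2 lay above OsWRKY65-2 replicate 2. Its log2 fold change was 0.50 ± 0.25 (SE, edgeR adjusted p = 0.767), and 0.34 ± 0.22 without OsWRKY65-2 replicate 3 (edgeR adjusted p = 0.638). Os07g0615200 and Os09g0439200 were the members whose fold change stayed positive in all settings tried.

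Os03g0402800, the other abundant JAZ gene, was at 95.6, 65.1 and 213 CPM in OsWRKY65-2 and at 43.9, 118 and 94.5 CPM in WT. Apart from replicate 3, the libraries of the line lay within the WT range. The log2 fold change was 0.54 ± 0.55 (SE, edgeR adjusted p = 0.870), and -0.09 ± 0.39 without that library (edgeR adjusted p = 0.965).

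The 3 neighbours on chromosome 3 differed in how far they moved between libraries. Os03g0180900, annotated as a repressor of jasmonate signalling that regulates phosphate starvation responses, was at 5.51, 0.606 and 254 CPM in OsWRKY65-2 and at 1.88, 26.0 and 1.95 CPM in WT. OsWRKY65-2 replicate 3 held 83.0 times the mean of replicates 1 and 2, and WT replicate 2 held 13.6 times the mean of WT replicates 1 and 3. These were the widest such ratios among the 10 members in either genotype. The log2 fold change was 3.11 ± 2.16 (SE) with all libraries, -1.70 ± 1.35 without OsWRKY65-2 replicate 3 and 5.45 ± 2.77 without WT replicate 2 (edgeR adjusted p = 0.815, 0.712 and 0.999).

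Os03g0180800, annotated with salt and dehydration tolerance, was at 2.1, 0.285 and 13.5 CPM in OsWRKY65-2 and at 1.20, 10.7 and 1.83 CPM in WT. Its highest WT library came close to the highest library of the line, and the log2 fold change was 0.20 ± 1.41 (SE, edgeR adjusted p = 0.981). It was -1.90 ± 1.14 without OsWRKY65-2 replicate 3 and 1.75 ± 1.58 without WT replicate 2. Os03g0181100, a TIFY-domain protein, was at 16.3, 10.6 and 47.9 CPM in OsWRKY65-2 and at 6.80, 28.9 and 17.4 CPM in WT. It varied least of the 3 neighbours, with a log2 fold change of 0.49 ± 0.73 (SE, edgeR adjusted p = 0.911) and of -0.40 ± 0.54 without OsWRKY65-2 replicate 3.

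On chromosome 10, Os10g0392400, a TIFY-domain protein, was at 21.3, 9.27 and 126 CPM in OsWRKY65-2 and at 8.85, 38.6 and 16.4 CPM in WT. Again replicate 3 of the line and replicate 2 of WT were highest, and the other 4 libraries lay between 8.85 and 21.3 CPM with the genotypes mixed. The log2 fold change was 1.29 ± 1.04 (SE, edgeR adjusted p = 0.835), and -0.48 ± 0.61 without OsWRKY65-2 replicate 3. Os10g0391400, annotated as a JAZ protein that activates hypersensitive cell death, was at 0.839, 0 and 3.53 CPM in OsWRKY65-2 and at 1.0, 2.05 and 1.87 CPM in WT. It was the one member with a negative fold change over all 6 libraries, at a log2 value of -0.17 ± 1.57 (SE, edgeR adjusted p = 0.987). Os04g0395800 on chromosome 4 was at 0, 0.321 and 9.68 CPM in OsWRKY65-2 and at 0.600, 2.11 and 0 CPM in WT. Its log2 fold change was 1.79 ± 2.22 (SE, edgeR adjusted p = 0.892). Os10g0391400 had a count of 0 in OsWRKY65-2 replicate 2 only, and Os04g0395800 in 1 library of each genotype, and their fitted values depend on the prior count.

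MYC2 varied less than most of its repressors. It was at 57.9, 49.5 and 132 CPM in OsWRKY65-2 and at 57.4, 73.2 and 66.0 CPM in WT. Replicates 1 and 2 of the line were within or below the WT range, and replicate 3 was 2.46 times their mean. WT replicate 2 was 1.19 times the mean of the other WT libraries. The log2 fold change was 0.29 ± 0.41 (SE, edgeR adjusted p = 0.908) over all libraries and -0.29 ± 0.20 without OsWRKY65-2 replicate 3 (edgeR adjusted p = 0.649).

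**Figure D3:**
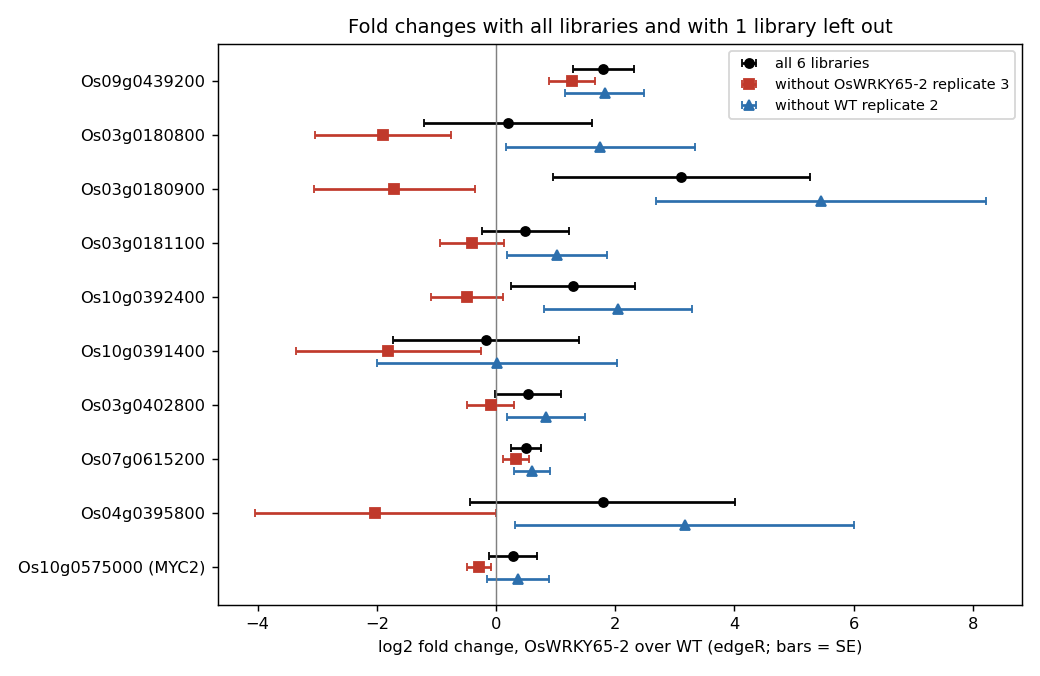
Log2 fold changes of OsWRKY65-2 over WT (x axis, bars SE) for the 10 genes, from edgeR with all 6 libraries, without OsWRKY65-2 replicate 3 and without WT replicate 2. Leaving out OsWRKY65-2 replicate 3 puts 8 of the 10 values below 0, and Os09g0439200 and Os07g0615200 remain above 0 in all 3 fits.

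The summed transcript level of the 9 listed JAZ genes followed the same libraries. This sum leaves out 3 other tested TIFY genes, described below. These were Os04g0653000, Os08g0428400 and Os09g0401300, with means of 61.3, 39.1 and 60.8 TPM in OsWRKY65-2 and 75.3, 51.5 and 52.3 TPM in WT. The 9 JAZ genes together were at 365, 265 and 1058 TPM in OsWRKY65-2 replicates 1 to 3 and at 244, 532 and 314 TPM in WT replicates 1 to 3. Means were 563 ± 432 TPM in OsWRKY65-2 and 364 ± 149.9 TPM in WT (SD, n = 3 each), and an exact two-sided permutation test of the log2 sums gave p = 0.60. The ratio of this sum to MYC2 was 12.6, 9.87 and 16.2 in OsWRKY65-2 and 6.65, 11.5 and 8.57 in WT.

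The make-up of the pool differed most in OsWRKY65-2 replicate 3 and WT replicate 2, the libraries with the largest pools. Shares and pool come from the same TPM values, so a rise in some genes lowers the shares of the others. Os07g0615200 and Os03g0402800 made up 78.1%, 81.3% and 41.6% of the summed JAZ TPM in OsWRKY65-2 replicates 1 to 3, and 80.8%, 63.6% and 78.4% in WT replicates 1 to 3. The 3 chromosome 3 neighbours took 9.47%, 6.92% and 36.6% in OsWRKY65-2 and 7.15%, 20.6% and 11.2% in WT. Most of that in OsWRKY65-2 replicate 3 was Os03g0180900, at 28.1% of the pool. Os09g0439200 took 3.76%, 6.22% and 3.14% in OsWRKY65-2 and 4.27%, 1.43% and 1.23% in WT, so that its share overlapped between genotypes through WT replicate 1 (exact two-sided permutation p = 0.30). The share of Os10g0391400 was lower in every OsWRKY65-2 library than in every WT library, at 0.364%, 0% and 0.520% in OsWRKY65-2 and 0.817%, 0.766% and 1.03% in WT (exact two-sided permutation p = 0.10, the smallest possible here). That gene had at most 67 counts in a library. Its own level overlapped between genotypes, at 1.33, 0 and 5.51 TPM in OsWRKY65-2 and 2.0, 4.07 and 3.23 TPM in WT. Its highest level was in OsWRKY65-2 replicate 3, where the low share came with a pool of 1058 TPM. Of the JAZ genes, 9 shares were compared in this way, and none could pass 0.05.

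**Figure D4:**
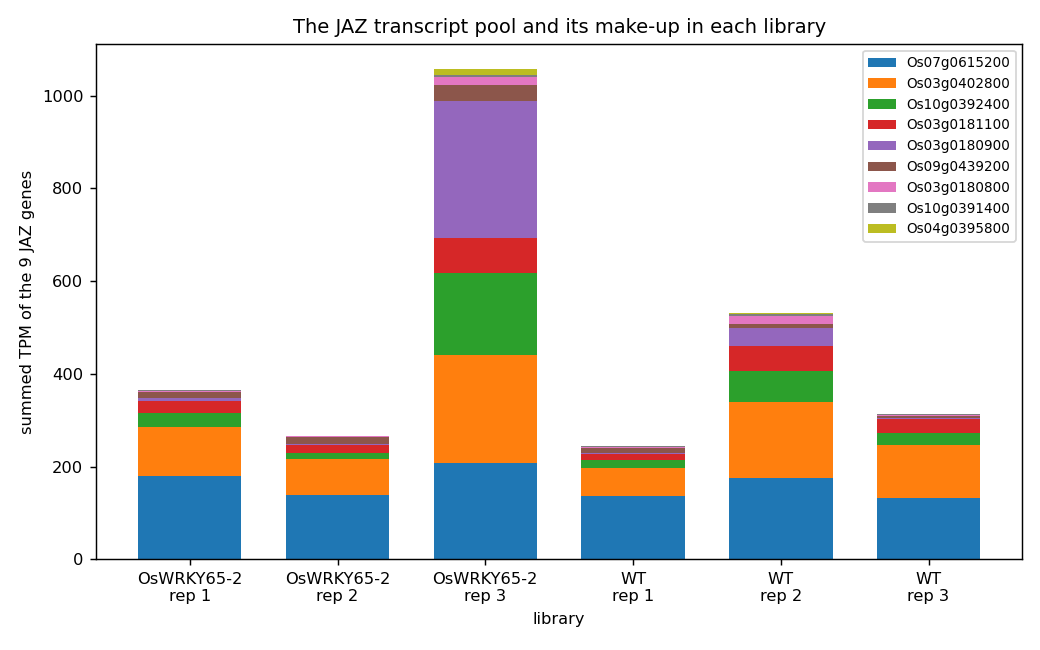
Summed TPM of the 9 JAZ genes in each library (bars from 0), OsWRKY65-2 left of WT, with each gene's part in its own colour. The bar of OsWRKY65-2 replicate 3 reaches 1058 TPM and that of WT replicate 2 reaches 532 TPM, and Os03g0180900 makes up 28.1% of the bar of OsWRKY65-2 replicate 3 and 7.27% of that of WT replicate 2.

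The other genes of the pathway were taken from 4 lists made from the annotation text and remembered identifiers. Of 7 further genes with TIFY or JAZ annotation, 3 had enough counts to be tested, and none had OsWRKY65-2 replicate 3 and WT replicate 2 as its highest libraries. Os04g0653000 is annotated as a jasmonic acid signalling repressor and with regulation of spikelet development. It was at 63.7, 53.4 and 37.2 CPM in OsWRKY65-2 and at 51.4, 55.7 and 53.3 CPM in WT. The line's replicate 3 was thus the lowest library for this repressor (log2 fold change -0.06, edgeR adjusted p = 0.973). Os08g0428400 was at 51.4, 50.3 and 45.4 CPM in OsWRKY65-2 and at 52.7, 53.8 and 53.6 CPM in WT (log2 fold change -0.12, edgeR adjusted p = 0.908). Every library of the line lay below WT for it, as for 10.5% of tested genes. Os09g0401300 was at 68.4, 63.4 and 101 CPM in OsWRKY65-2 and at 45.4, 63.2 and 61.8 CPM in WT (log2 fold change 0.45, edgeR adjusted p = 0.778). Here every library of the line lay above WT, though narrowly, as for 7.16% of tested genes. Each of these 3 genes was steady across WT compared with most members: their median SD of log2(CPM + 0.5) in WT was 0.06, against 1.02 over the 9 JAZ members.

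All 4 genes on the list of receptors and co-repressors were tested, with 2 fold changes positive, 2 negative and 0 called by edgeR, at unadjusted p under 0.05 or by adjusted p. The receptor component Os01g0853400 was at 68.2, 74.5 and 64.3 CPM in OsWRKY65-2 and at 94.8, 82.1 and 85.1 CPM in WT. Its genotypes did not overlap (all OsWRKY65-2 libraries lay below WT for 10.5% of tested genes), and its log2 fold change was -0.34 ± 0.18 (SE, edgeR adjusted p = 0.770). Os03g0265500, similar to coronatine-insensitive 1, was at 86.4, 67.9 and 70.2 CPM in OsWRKY65-2 and at 64.7, 58.9 and 62.3 CPM in WT, again without overlap (log2 fold change 0.27 ± 0.19, edgeR adjusted p = 0.815). All OsWRKY65-2 libraries lay above WT for 7.16% of tested genes. The Ninja-family gene Os03g0214200 was at 15.5, 19.5 and 29.5 CPM in OsWRKY65-2 and at 17.4, 13.1 and 10.8 CPM in WT, with overlap (log2 fold change 0.64 ± 0.35, edgeR adjusted p = 0.772).

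In the list of jasmonate synthesis genes, which holds lipoxygenases of either type, 21 of 31 genes were tested, 15 had a positive fold change and edgeR called 0 (3 at an unadjusted p under 0.05). Over all tested genes, 49.5% were positive and 6.51% had an unadjusted edgeR p under 0.05. The median log2 fold change of the list was 0.37, and 0.02 without OsWRKY65-2 replicate 3. Of the 21, 8 had OsWRKY65-2 replicate 3 and WT replicate 2 as their highest libraries, a share of 38.1% beside 6.83% of all genes. The lipoxygenase Os05g0304600, with the smallest unadjusted p of this list (0.00339, edgeR), was at 74.0, 48.1 and 87.4 CPM in OsWRKY65-2 and at 24.2, 30.2 and 31.2 CPM in WT, without overlap (log2 fold change 1.29 ± 0.28, edgeR adjusted p = 0.763). The lipoxygenase Os02g0194700 did not overlap either, at 51.5, 34.9 and 14.4 CPM in OsWRKY65-2 and 1.08, 0 and 5.65 CPM in WT (edgeR adjusted p = 0.763). These were the 2 of the 21 genes with every OsWRKY65-2 library above every WT library, as was the case for 7.16% of all tested genes. The 12-oxophytodienoic acid reductase Os06g0216300 was at 2.88, 0.499 and 61.1 CPM in OsWRKY65-2 and at 0.0801, 1.37 and 0.0812 CPM in WT, with the same highest library as the JAZ genes (edgeR adjusted p = 0.763).

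Among 21 other genes whose annotation names jasmonate, 14 were tested, 9 had a positive fold change (median log2 fold change 0.31) and edgeR called 0, with 1 at an unadjusted p under 0.05. Over all tested genes, the shares were 49.5% positive and 6.51% at an unadjusted edgeR p under 0.05. Without OsWRKY65-2 replicate 3, 8 of 14 were positive and the median was 0.04, while 51.6% of all genes were positive. The gene at an unadjusted edgeR p under 0.05 was Os12g0198700, similar to a jasmonate-induced protein. It was at 54.9, 132 and 1.28 CPM in OsWRKY65-2 and at 3.52, 0.428 and 2.11 CPM in WT (log2 fold change 4.91 ± 1.60, edgeR adjusted p = 0.763). It ran against the JAZ pattern, since OsWRKY65-2 replicate 3 lay within the WT range. The peroxisomal import receptor Os08g0500100, annotated as modulating jasmonate synthesis, was at 127, 103 and 196 CPM in OsWRKY65-2 and at 102, 96.9 and 100.1 CPM in WT (edgeR adjusted p = 0.771). Its OsWRKY65-2 libraries all lay above WT, as for 7.16% of tested genes. The wound-responsive glucanase Os05g0375400 was at 231, 204 and 276 CPM in OsWRKY65-2 and 437, 245 and 306 CPM in WT, with overlap (edgeR adjusted p = 0.778).

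The genes with the profile most like that of the 10 members were sought among 12726 annotated genes at a mean of 5 CPM or more. Likeness was the Pearson r over the 6 libraries between a gene's log2(CPM + 0.5) and the mean standardised profile of the members, given as a description. All 6 genes that ranked first had r between 0.995 and 0.999. The closest was Os09g0482800, a calcium-binding protein, at 2.67, 0.856 and 23.3 CPM in OsWRKY65-2 and 0.801, 5.41 and 1.46 CPM in WT. Os01g0934100, with a C2 calcium-dependent membrane targeting domain, was at 19.6, 10.6 and 56.6 CPM in OsWRKY65-2 and 11.6, 26.8 and 14.3 CPM in WT. The others were the ABC transporter-like gene Os08g0384500, the NADPH-dependent FMN reductase Os01g0954000, the heat-stress E3 ligase Os03g0302200 and Os04g0379600, annotated with a Rin4 domain and defence response. Since they were chosen for their likeness, their highest libraries, OsWRKY65-2 replicate 3 and WT replicate 2, follow from the choice.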

How the data were processed

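The submitters' processing notes name the build IRGSP-1.0 and, in no stated order or role, StringTie 2.1.3b, HISAT2 2.1.0, Trimmomatic and bcl2fastq 2.20.0. Counting options, strand setting and annotation release were not given in the sources used here. Each gene has 3 kinds of value per library, per the file headers, namely read counts, FPKM and TPM. The read counts deposited by the authors are estimated counts, already whole, and were not rounded. The FPKM values deposited by the authors were not used. The TPM values deposited by the authors were used for levels between genes. Counts, whole over 37863 genes, were tested in edgeR 4.0.16 (R 4.3.3) with TMM factors, filterByExpr at a minimum count of 10, the robust quasi-likelihood test with genotype as the term, a prior count of 2 and Benjamini-Hochberg adjustment over all genes tested. All 10 members passed the filter. The SE is the absolute log2 fold change divided by the square root of F. Alternatives used DESeq2 1.42.0 and limma 3.58.1 (voom). The edgeR test was also run on simulated counts with 200 changed genes, drawn only from genes above a CPM minimum. The simulation held no outlying library such as OsWRKY65-2 replicate 3, so it cannot speak to results that rest on that library.

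The members and lists were chosen with earlier results of these data known. By rule, all 10 members were named, plus the 3 genes of smallest unadjusted p in each other list and the 6 genes of most similar profile. Genes used only to check tissue and time of day were dropped where the table annotates them as something else. The MYC2, receptor and list annotations are those of the table. Motifs and protein features were not analysed here.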

Additional observations from a re-analysis of the deposited data

How the results depend on the processing

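With 1 library left out, edgeR called 0 to 13 genes higher and 0 to 6 lower, all of them without OsWRKY65-2 replicate 3, and 0 members, with 2 to 10 positive. DESeq2 called 419 and 303 genes and 1 member, and 181, 105 and 0 when genes with low counts were kept, a setting chosen after seeing the data. Other normalization factors and limma-voom called 0 and 0, and keeping low-count genes 2 and 0 in edgeR. Without OsWRKY65-2 replicate 3, DESeq2 called 274 and 426, with 2 members positive. The replicate block called 0 and 0 with all libraries, and 7 and 1 without OsWRKY65-2 replicate 3, with 3 members positive. Same-numbered libraries share only a number: their deviations from the genotype means correlated across genes at 0.07, -0.07 and -0.01.

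With 1 library left out, log2 fold changes ran from -1.90 to 1.75 for Os03g0180800, -1.70 to 5.45 for Os03g0180900, -0.40 to 1.03 for Os03g0181100, -0.48 to 2.04 for Os10g0392400, -1.81 to 0.40 for Os10g0391400, -0.092 to 0.85 for Os03g0402800, -2.03 to 3.17 for Os04g0395800, -0.29 to 0.53 for MYC2, 1.28 to 2.1 for Os09g0439200 and 0.34 to 0.67 for Os07g0615200 (edgeR adjusted p from 0.315 to 0.9996). Signs also turned for Os03g0180800 in limma-voom (-1.17) and for Os04g0395800 with the replicate block (-0.96). Without OsWRKY65-2 replicate 3, the replicate block and DESeq2 gave -2.0 and -1.96 for Os03g0180800, -1.80 and -1.71 for Os03g0180900, -0.12 and -0.41 for Os03g0181100, -0.41 and -0.49 for Os10g0392400, -2.76 and -2.46 for Os04g0395800 and -0.28 and -0.30 for MYC2, and DESeq2 gave -0.10 for Os03g0402800. Of 140 alternative values, 1 became a call, Os09g0439200 in DESeq2. For all of these shifts, the cause was not tested.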
